A study of Mus musculus with 6 samples.

Results

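The genes described here are 8 protein-coding genes that lie around Met on mouse chromosome 6: Mdfic, Tes, Met, Capza2, St7, Cftr, Lsm8 and Tspan12, of 48820 genes in the table. They were taken by symbol between positions 15720661 and 21852515 of GRCm38, a stretch of 6.13 Mb, and the 2 caveolin genes between them were left out. The stretch was picked because its genes had been seen to be higher together in the comparison below, so the differences between groups are given as a description, without a test. This held for most but not all of them. In the libraries labelled dKO (below) 6 of the 8 genes lay above every wild-type library, Tes lay below, and the ranges of Lsm8 overlapped. Over all 15807 tested genes, 32.7% lay above and 33.0% lay below.

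The RNA came from spheroids, compact 3-dimensional aggregates, of 4T1, a line from a mouse mammary tumour used as a model of triple-negative breast cancer. One group of 3 libraries came from wild-type (WT) 4T1 cells and the other, also of 3, from 4T1 cells labelled as a double knockout of LATS1 and LATS2 (dKO), all grown in RPMI medium with serum and antibiotics. No other treatment is given, and the labels do not say how the knockout line was made or whether it is 1 clone. They call the libraries biological replicates without naming separate cultures, so errors and p-values measure only the spread between these libraries, which may be technical. LATS1 and LATS2 are Hippo pathway kinases that restrain the transcriptional coactivators YAP and TAZ.

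MET is the receptor tyrosine kinase for hepatocyte growth factor (HGF). On binding its ligand it phosphorylates its own tail, recruits adaptors such as GAB1 and GRB2, and drives scattering, migration and survival of epithelial cells. In breast cancer it is studied mainly in basal-like and triple-negative disease. Of its chromosomal neighbours, testin and a capping protein subunit both act on actin. CFTR is a chloride channel, TSPAN12 is a tetraspanin and LSM8 is part of an RNA-binding ring.

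Totals ran from 38194478 to 49630116 counts per library. Lats1 was lower in the libraries labelled dKO, with 48.0 to 53.0 CPM (counts relative to the TMM-scaled library total, the usual CPM) against 146 to 158 CPM. Lats2 was higher, with 63.5 to 86.7 against 22.7 to 30.5 CPM. Counts per gene do not show whether the transcripts are intact, so these levels do not test the knockout. Below, dKO means only the libraries so labelled. WT 2 and dKO 3 were the least like their own groups: over tested genes the root mean square log2 difference was 0.34 to 0.37 in pairs with either, against 0.24 between WT 1 and WT 3 and 0.25 between dKO 1 and dKO 2. All 4 epithelial markers (Krt8, Krt18, Epcam, Cdh1) were present, with sums of 4109 to 4547 CPM in WT and 3010 to 3631 CPM in dKO, of which Cdh1 rose and the other 3 fell. Of 7 fibroblast markers 2 fell, 1 rose and 2 were at 0 in all libraries, with sums of 37.1 to 60.0 CPM in WT and 11.0 to 11.8 CPM in dKO, and 5 endothelial markers summed to at most 1.36 CPM. Over all tested genes 28.6% were called higher and 28.7% lower, at an edgeR adjusted p under 0.05. The part of these marker shifts in the values below was not tested. In bulk RNA, fewer cells of a kind and less RNA per cell cannot be told apart.

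Met itself (ENSMUSG00000009376, chromosome 6, 17463800 to 17573980, plus strand) stood at 98.3, 94.1 and 102 CPM in WT 1, WT 2 and WT 3, and at 481, 483 and 453 CPM in dKO 1, dKO 2 and dKO 3. All libraries labelled dKO were far above all WT libraries, and the libraries of each group lay close together. The means were 98.0 ± 3.74 and 472 ± 16.7 CPM (SD, n = 3), a log2 fold change of 2.27 ± 0.07 (SE), or 4.82-fold. No annotated gene overlaps Met.

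The sequences just upstream of the start sites were read from the RefSeq promoter table (GRCm38.p6), which matched all 8 genes with 10 windows of 300 bases, of which St7 holds 3. Each window was searched on both strands for GGAATG, the core bound by TEAD factors, the DNA-binding partners of YAP and TAZ, for TGANTCA, bound by AP-1, and for GGGCGG, the GC box bound by SP1 and KLF factors. These letters occur in 14.7%, 7.81% and 35.7% of the 32851 windows of the table, in the same order. In all, 4 stretches of 250 bases are shown, 5′ to 3′ on the strand of the gene and ending at the base before the start site, with matches in capitals. Met is shown as the receptor gene and the only one of the 10 windows with TGANTCA, Cftr for its repeated GC boxes, St7 at the third start site for GGAATG, and Tes as the gene that was lower.
Met, chr6:17463707-17463956, plus strand: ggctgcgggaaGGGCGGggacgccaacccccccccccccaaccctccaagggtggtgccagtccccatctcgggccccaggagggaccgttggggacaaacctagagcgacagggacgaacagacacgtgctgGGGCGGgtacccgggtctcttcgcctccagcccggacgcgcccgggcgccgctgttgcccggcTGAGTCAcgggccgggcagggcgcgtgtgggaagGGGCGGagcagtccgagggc
Cftr, chr6:18170437-18170686, plus strand: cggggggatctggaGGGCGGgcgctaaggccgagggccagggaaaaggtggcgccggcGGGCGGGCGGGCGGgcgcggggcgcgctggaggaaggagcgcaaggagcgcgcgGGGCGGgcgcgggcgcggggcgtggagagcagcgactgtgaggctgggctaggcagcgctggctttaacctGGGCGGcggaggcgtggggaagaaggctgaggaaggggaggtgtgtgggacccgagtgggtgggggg
St7, at the third start site, chr6:17748920-17749169, plus strand: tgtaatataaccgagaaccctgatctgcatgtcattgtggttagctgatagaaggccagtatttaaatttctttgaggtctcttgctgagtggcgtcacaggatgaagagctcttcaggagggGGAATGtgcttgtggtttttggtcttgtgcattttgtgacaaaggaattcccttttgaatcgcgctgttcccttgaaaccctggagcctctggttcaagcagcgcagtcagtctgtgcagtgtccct
Tes, chr6:17064899-17065148, plus strand: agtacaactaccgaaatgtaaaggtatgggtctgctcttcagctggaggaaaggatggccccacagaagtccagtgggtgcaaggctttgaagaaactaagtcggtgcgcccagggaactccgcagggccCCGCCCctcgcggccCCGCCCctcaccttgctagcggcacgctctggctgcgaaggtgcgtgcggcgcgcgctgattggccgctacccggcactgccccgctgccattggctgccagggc

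The starts of the windows are those of RefSeq. The gene starts given with each gene, from GENCODE, lie to the left of them for Met, Capza2, St7 and Lsm8. Windows of these genes thus lie partly or wholly inside the annotated gene. In Met the AP-1 letters began 54 bases before the RefSeq start, and GC boxes began 239, 117 and 20 bases before it. The Cftr window held 6 GC boxes, of which the 3 beginning 192, 188 and 184 bases before the start each overlap the next. GGAATG was found in 2 of the 10 windows, 127 bases before the third start of St7 and on the opposite strand just inside the transcribed part of Tspan12. GC boxes were found in the windows of Mdfic, Tes, Met, Capza2, Cftr and Lsm8, that is in genes that were higher, lower and little different alike. The windows of Capza2, Met, Cftr, Lsm8 and Tes held 38, 34, 31, 28 and 24 CpG dinucleotides. Those of Mdfic and Tspan12 held 8 and 7, and those of St7 held 19, 4 and 9. The median over the table was 7, and windows far above it belonged to genes that were higher, lower and little different alike. A match is only a run of letters, and a window without one says nothing of the factor.

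Of the actin-linked genes, Capza2 was higher and Tes lower in the libraries labelled dKO. Capza2 (ENSMUSG00000015733, 17636234 to 17666972, plus strand) encodes an alpha subunit of the capping protein that closes the barbed ends of actin filaments. It stood at 168, 180 and 164 CPM in WT 1, WT 2 and WT 3 (mean 171 ± 7.94 CPM) and at 389, 402 and 343 CPM in dKO 1, dKO 2 and dKO 3 (mean 378 ± 31.1 CPM). The groups did not overlap, dKO 3 was the lowest of its group, and the log2 fold change was 1.15 ± 0.08, or 2.21-fold. Tes (ENSMUSG00000029552, 17065149 to 17105828, plus strand) encodes testin, a LIM domain protein of focal adhesions and actin fibres. It stood at 241, 208 and 244 CPM in WT 1, WT 2 and WT 3 (231 ± 20.1 CPM) and at 142, 132 and 124 CPM in dKO (133 ± 9.17 CPM). Every library labelled dKO was below every WT library, with a log2 fold change of -0.80 ± 0.09. Tes shares 144 exonic bases with Gm4876 on the opposite strand, whose reads cannot be told from those of Tes without strand, but Gm4876 held 473 counts over all libraries against 5327 to 11905 for Tes in each.

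The membrane protein genes Tspan12 and Cftr were both higher, but differed in how evenly. Tspan12 (ENSMUSG00000029669, 21771395 to 21852515, minus strand) encodes a tetraspanin that assists Norrin signalling through Frizzled 4. It was at 11.5, 13.6 and 9.79 CPM in WT 1, WT 2 and WT 3 (11.6 ± 1.90 CPM) and at 54.2, 55.1 and 48.8 CPM in dKO (52.7 ± 3.36 CPM). The groups lay far apart, and the log2 fold change was 2.18 ± 0.13, or 4.54-fold. The antisense gene Gm30270 shares 98 exonic bases with Tspan12 and held 27 counts in all.

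Cftr (ENSMUSG00000041301, 18170687 to 18322768, plus strand) encodes the cyclic AMP-regulated chloride channel mutated in cystic fibrosis. It had 16 counts in WT 1 and 0 in WT 2 and WT 3, around a floor of 12 counts, and 769, 621 and 67 counts in dKO 1, dKO 2 and dKO 3. In CPM these are 0.324, 0 and 0 against 20.1, 15.3 and 1.56. All libraries labelled dKO were above all WT libraries, but dKO 3 was far below dKO 1 and dKO 2. The fit gave a log2 fold change of 6.70 ± 1.48, which became 12.00 without WT 1, 7.22 without dKO 3 and 6.71 without both WT 2 and dKO 3, so its size is uncertain. Leukocyte markers were also higher in dKO, unevenly: 6 markers summed to 3.63, 14.2 and 1.01 CPM in WT 1, WT 2 and WT 3 and to 191, 193 and 63.2 CPM in dKO 1, dKO 2 and dKO 3, of which Csf1r made up 188, 190 and 62.7 CPM. Of these markers 2, Csf1r and Itgam, passed the count filter, and both rose, Itgam only to 13, 13 and 20 counts. Within dKO, Csf1r was lowest in dKO 3, as Cftr was, whereas Itgam was highest there, and in WT the sum was highest in WT 2, where Cftr had 0 counts. Their part in the Cftr values was not tested. Adgre1, a macrophage marker, was at 2.12 CPM in dKO 1, at 2.53 CPM in dKO 2 and at 0 elsewhere. Ptprc, the pan-leukocyte marker, was at 0 in WT and at 0.105, 0.418 and 0 CPM in dKO, and Cd3e was at 0 in all libraries.

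Of the remaining genes, St7 and Mdfic were higher and Lsm8 was nearly level. St7 (ENSMUSG00000029534, 17692933 to 17943025, plus strand), named for suppression of tumorigenicity, stood at 10.6, 11.3 and 9.42 CPM in WT 1, WT 2 and WT 3 (10.4 ± 0.932 CPM). In dKO it stood at 43.9, 40.3 and 41.8 CPM (42.0 ± 1.79 CPM), a log2 fold change of 2.01 ± 0.11, or 4.03-fold. The groups were wide apart. Of 14 annotated genes that overlap St7, the one with most counts was Gm43844, with 191 over all libraries and no exonic base in common.

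Mdfic (ENSMUSG00000041390, 15720661 to 15802169, plus strand) encodes a MyoD family inhibitor domain protein that binds transcription factors and PIEZO channels. It stood at 19.5, 11.9 and 18.3 CPM in WT 1, WT 2 and WT 3 (16.6 ± 4.07 CPM) and at 30.9, 30.9 and 30.8 CPM in dKO (30.9 ± 0.0371 CPM). The libraries labelled dKO were almost equal to each other, and WT 2 was the low one in its group. At the 1179 to 1324 counts of dKO, counting error alone exceeds the SD of that group, so this SD understates the uncertainty. The log2 fold change of 0.90 ± 0.17 became 0.71 when WT 2 was left out. Lsm8 (ENSMUSG00000044155, 18848579 to 18855751, plus strand) encodes the subunit that directs the Sm-like ring to U6 small nuclear RNA. It was at 36.1, 33.6 and 36.6 CPM in WT 1, WT 2 and WT 3 (35.5 ± 1.58 CPM) and at 38.9, 35.5 and 37.4 CPM in dKO (37.3 ± 1.67 CPM). The groups overlapped, and the log2 fold change was 0.07 ± 0.09.

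**Figure D1:**
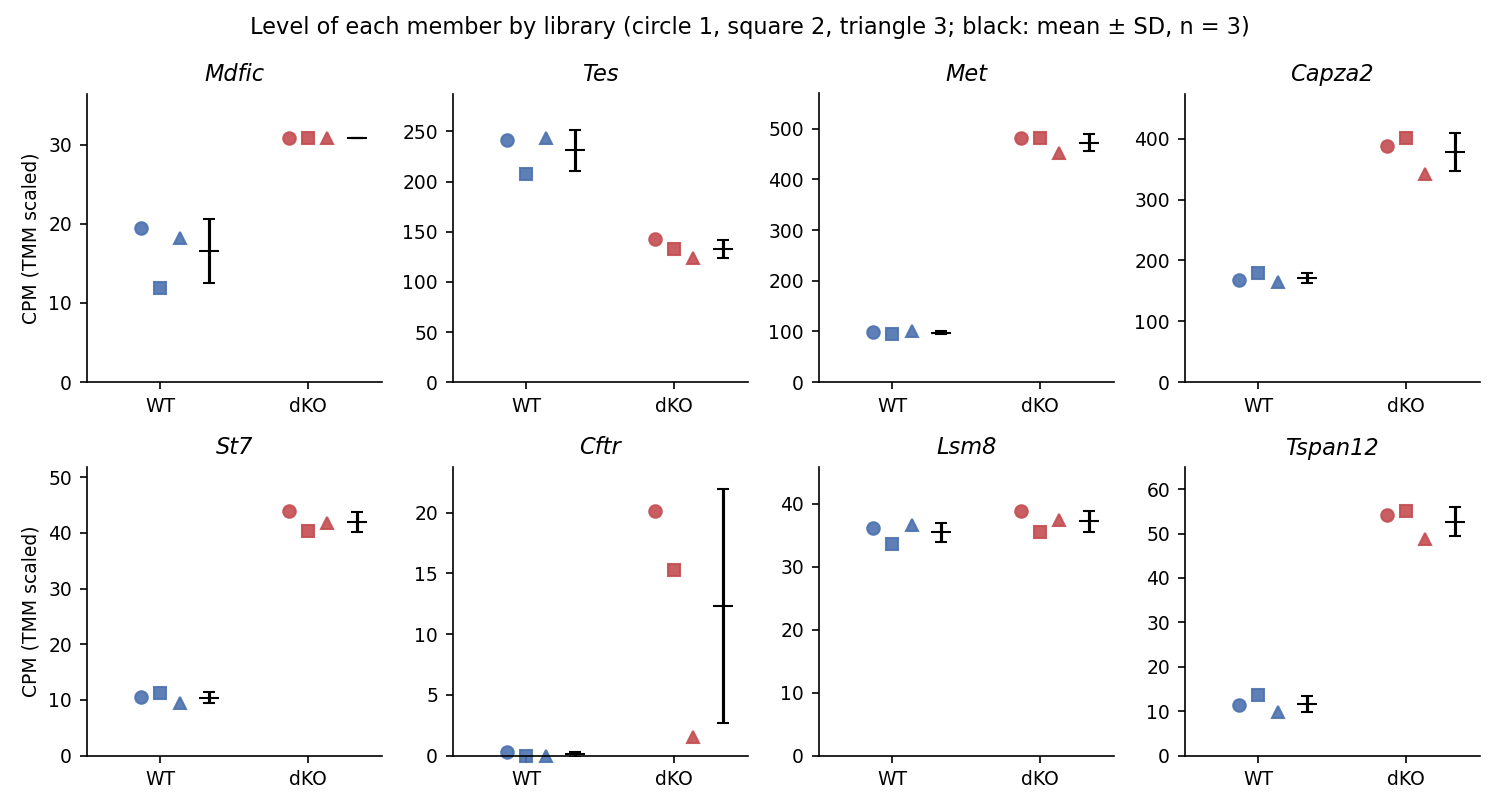
Level of each of the 8 genes in every library, in TMM-scaled CPM on axes that start at 0; circles, squares and triangles are replicates 1, 2 and 3, and black bars are the mean ± SD of 3 libraries. Met, Capza2, St7, Tspan12, Mdfic and Cftr lie higher in every dKO library, Tes lies lower, Lsm8 overlaps, and dKO 3 is far below the other dKO libraries for Cftr, at 1.56 CPM.

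Read by position, the differences did not form an unbroken block. From left to right the log2 fold changes were 0.90 for Mdfic, -0.80 for Tes, 2.27 for Met and 1.15 for Capza2. Further right they were 2.01 for St7, 6.70 for Cftr, 0.07 for Lsm8 and 2.18 for Tspan12. The median over the members was 1.58, where that over all tested genes was -0.005. As the stretch was picked on this contrast, nothing is read from that median. Met, Capza2 and St7 are close neighbours, with 62.3 kb between the first pair and 26.0 kb between the second. Lsm8 and Tspan12 are 2915.6 kb apart, and Tes lies 358 kb before Met. Between Tes and Met lie the caveolin genes, which encode the coat proteins of caveolae and were higher too: Cav2 went from 50.6 ± 5.07 to 417 ± 7.68 CPM and Cav1 from 10.6 ± 0.968 to 410.5 ± 7.81 CPM, log2 fold changes of 3.04 and 5.27.

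The stretch from Mdfic to Tspan12 holds 75 annotated genes, 16 of them protein-coding, and 39 had 0 counts in every library. Besides the members, 7 genes passed the count filter, of which 4 were called higher (Cav1, Cav2, Gm26809 and Gm4876) and 3 were not, at an edgeR adjusted p under 0.05. Over all tested genes 57.3% were called in either direction and 28.6% higher. This contrast also chose the stretch, so nothing is read from that count. The noncoding RNA gene Gm26809, just to the left of Lsm8, stood at 8.78, 12.1 and 10.8 CPM in WT and at 14.7, 20.1 and 15.2 CPM in dKO. Its log2 fold change was 0.66 ± 0.18 (adjusted p = 0.0114, edgeR), and without dKO 2 the call was lost (adjusted p = 0.051, edgeR). Gm4876, antisense to Tes, went from 1.01 ± 0.478 to 2.67 ± 1.34 CPM with overlapping groups (adjusted p = 0.0474, edgeR). That call was lost without WT 2, without WT 3, without dKO 2 and without dKO 3 (adjusted p = 0.12, 0.108, 0.135 and 0.142, edgeR). Gm15473, Gm43844 and Gm20186 were each at 1.96 CPM or lower in every library and did not pass, although Gm15473 passed without dKO 2, the only library of its group with counts (adjusted p = 0.00323, edgeR).

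Several coding genes in the same stretch were silent or nearly so. Tfec, Wnt2, Asz1, Ankrd7 and Kcnd2, which encode a transcription factor, a Wnt ligand, a germ cell protein, an ankyrin repeat protein and a potassium channel, had 0 counts in all 6 libraries. A count of 0 allows up to 0.243 to 0.314 CPM per library at the floor of 12 counts, which covers counting error only. Cttnbp2, a cortactin-binding protein gene next to Cftr, had 0 counts in WT and 10, 26 and 4 counts in dKO 1, dKO 2 and dKO 3.

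The genes outside the stretch are no members, but whether their values bore on where its ends were set is not known. Stretches of equal length on either side held 14 tested genes, of which 5 were called higher (Tmem168, Bmt2, Ing3, Fam3c and Wasl) and 3 lower (Phf14, Cped1 and Cadps2), against 28.6% and 28.7% over all tested genes, and the median log2 fold change was 0.28. On the left, the nearest tested genes were the noncoding RNA gene 1110019D14Rik, which did not pass (adjusted p = 0.906, edgeR), 2610001J05Rik at 17.8 ± 1.70 CPM in WT and 22.0 ± 1.81 CPM in dKO (adjusted p = 0.0624, edgeR), and Bmt2, a regulator of amino acid sensing. Bmt2 rose from 26.7 ± 2.52 to 49.0 ± 6.96 CPM (adjusted p = 0.000376, edgeR). 2610001J05Rik passed without WT 2 and without dKO 3 (adjusted p = 0.0434 and 0.0378, edgeR).

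On the right of Tspan12, Ing3, a subunit of a histone acetyltransferase complex, rose from 20.6 ± 1.10 to 34.0 ± 3.69 CPM (adjusted p = 0.000598, edgeR). Fam3c, a secreted factor gene linked to epithelial plasticity, rose from 68.7 ± 4.17 to 174 ± 10.6 CPM (log2 fold change 1.34 ± 0.08, edgeR adjusted p = 1.68e-06). Cped1, between them, had 18, 13 and 15 counts in WT, just above the floor, and 0 in every library labelled dKO (adjusted p = 0.00316, edgeR), so no fold is given. Of the others named after their values were seen, Cadps2, a vesicle priming factor gene, fell from 15.2 ± 0.943 to 1.07 ± 0.322 CPM, and Wasl, the N-WASP gene, rose by 0.32 ± 0.07 on the log2 scale. Calls among these flanking genes went both ways within a short distance.

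**Figure D2:**
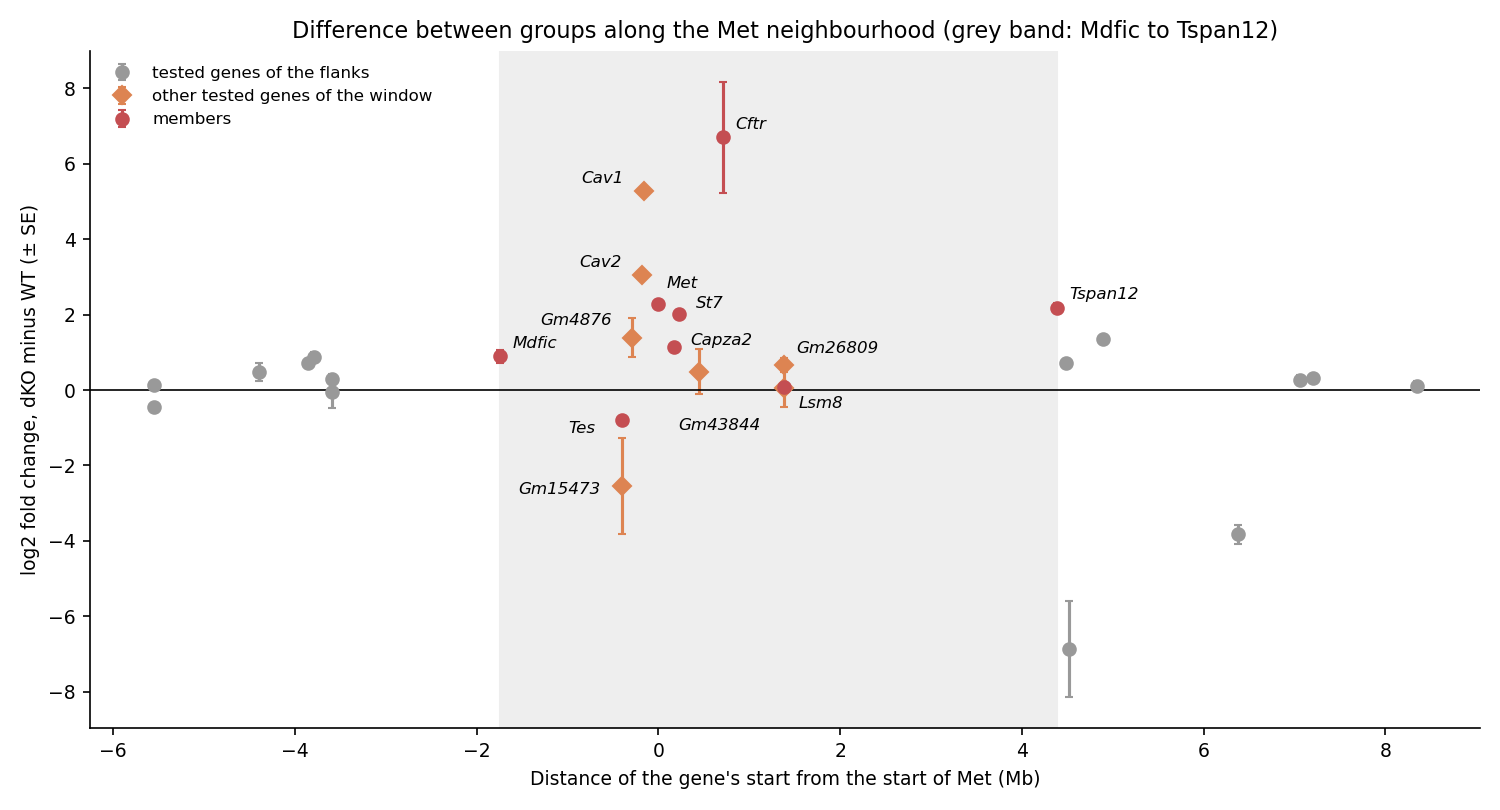
Log2 fold change (dKO minus WT, ± SE) of every tested gene against the distance of its start from the start of Met in Mb; red circles are the 8 members, orange diamonds other tested genes of the stretch (Gm20186, beside Lsm8, is not labelled) and grey circles genes of the flanks. Most members lie above 0, Tes lies at -0.80 and Lsm8 at 0.07, and the lowest flanking points are Cped1 and Cadps2.

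Levels per length of merged exons put the genes on a rough common scale. Merged exons span all annotated transcripts of a gene. The order between genes therefore depends on which transcripts are expressed, which was not measured. In WT the order by level was Tes (33.8 ± 2.94 CPM per kb), Capza2 (29.0 ± 1.35), Met (12.8 ± 0.487), Lsm8 (8.44 ± 0.377), Tspan12 (3.51 ± 0.572), Mdfic (2.23 ± 0.548), St7 (1.15 ± 0.103) and Cftr, at 0.0418 CPM per kb in WT 1 and 0 in the others. Only Tes and Capza2 overlapped as neighbours in that order. In dKO the order by level was Capza2 (64.1 ± 5.29 CPM per kb), Met (61.5 ± 2.18), Tes (19.4 ± 1.34), Tspan12 (15.9 ± 1.01), Lsm8 (8.87 ± 0.397), St7 (4.65 ± 0.198), Mdfic (4.15 ± 0.00499) and Cftr (1.59 ± 1.24). Here only Capza2 and Met overlapped, and the SD of Mdfic was below its counting error. On this scale Met moved from below both actin-linked genes to the level of Capza2, and Tspan12 from below Lsm8 to above it.

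**Figure D3:**
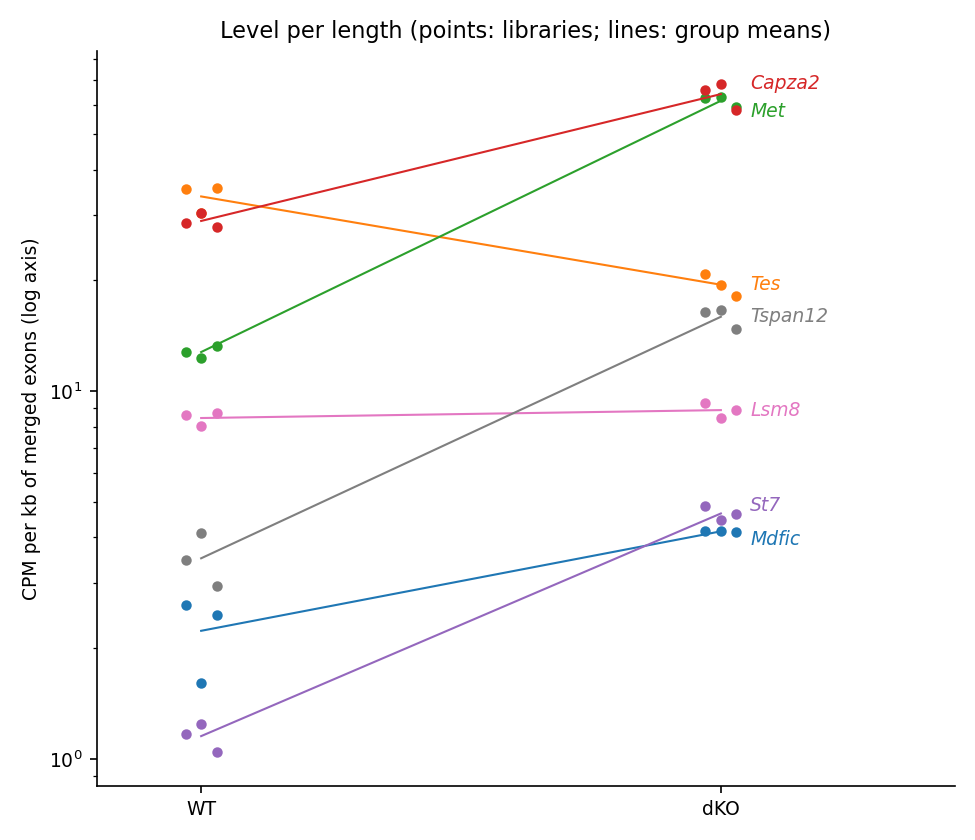
Level of 7 of the genes in CPM per kb of merged exons on a log axis, WT on the left and dKO on the right; points are libraries and lines join group means, and Cftr is left out because 2 of its WT values are 0. The WT 2 point of Tes is hidden under that of Capza2. The lines of Met and Tspan12 cross those of Tes and Lsm8, and Capza2 and Met end together at 64.1 and 61.5 CPM per kb.

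The profile of Met over the 6 libraries was compared with that of every tested gene, as the Euclidean distance between log2(CPM + 1) values centred on each gene's mean, which is a description. The nearest genes were Slc44a3 on chromosome 3 (distance 0.106), Pik3cb on chromosome 9 (0.1515), Chchd4 on chromosome 6 (0.1525), Trim54 on chromosome 5 (0.169) and Rnf223 on chromosome 4 (0.171). Trim54 and Rnf223 were under 1 CPM in WT, where the added 1 CPM shrinks differences, so their distance to Met understates how far they differ from it: Trim54 stood at 0, 0 and 0.129 CPM in WT and at 4.58, 3.98 and 3.65 CPM in dKO, and the log2 fold change of Rnf223 was 3.60 against 2.27 for Met. Slc44a3, at 2.51 CPM in WT, was affected too, as its log2 fold change was 2.64. The added 1 CPM also acts on Tspan12 and St7, at 11.6 and 10.4 CPM in WT, so the ranks depend on it. Pik3cb, at higher levels, measured 39.3 ± 1.49 CPM in WT and 207 ± 6.80 CPM in dKO. Of the neighbours of Met, Tspan12 was the closest, at rank 60 (distance 0.435), then St7 at rank 95 (0.498), Cav2 at rank 395, Capza2 at rank 906 and Mdfic at rank 1665. Cftr, Lsm8, Cav1 and Tes were farther, at ranks 5666 to 13397. This distance weighs the size of the difference between groups: Cav1, higher as Met was but with a log2 fold change of 5.27, had rank 12715. By this measure the nearest genes lay outside the neighbourhood.

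Genes that act with MET were followed through a list of 41, of which 37 passed the count filter. 9 of them rose and 17 fell, 11 missed the threshold, and the median log2 fold change stood at 0.0007, against 28.6% higher, 28.7% lower and a median of -0.005 over all tested genes. Without WT 2 and dKO 3, 14 rose and 18 fell. Leaving out these libraries also raised the calls over all tested genes, to 5101 higher and 5038 lower of 16274. With all libraries these were 4526 and 4534 of 15807. Hgf itself, the ligand, was near absent, at 0.0811 CPM or less in WT and at 0 in dKO, below the floor. Of the proteases that activate it and their inhibitors, Plau, which encodes urokinase, fell from 278 ± 3.08 to 121 ± 4.71 CPM (adjusted p = 8.77e-07, edgeR). The inhibitor genes parted: Spint2 fell from 459 ± 78.1 to 248 ± 16.3 CPM and Spint1 rose from 150.5 ± 3.99 to 192 ± 16.0 CPM (adjusted p = 0.000212 and 0.0035, edgeR). St14, the gene of the activator matriptase, measured 245 ± 7.52 CPM in WT and 245 ± 10.4 CPM in dKO (adjusted p = 0.994, edgeR), Plat and Hgfac did not pass either, and Hpn was below the floor. Mst1, which encodes the ligand of the related receptor RON, rose from 0.506 ± 0.196 to 4.99 ± 0.740 CPM (adjusted p = 5.83e-05, edgeR), while the RON gene Mst1r did not pass the filter.

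Of 7 genes of MET co-receptors and partners 3 rose and 4 fell, against 57.3% of all tested genes called in either direction, and the smallest change was that of Plxnb2, at 1.12-fold. Cd44, the hyaluronan receptor gene, fell from 761 ± 67.5 to 126 ± 4.66 CPM, which is -2.59 ± 0.08 as log2 fold change, and Itgb4, an integrin subunit gene of hemidesmosomes, fell from 593 ± 23.8 to 125 ± 29.0 CPM (adjusted p = 6.34e-08 and 3.91e-06, edgeR). Plxnb1, a semaphorin receptor gene, fell from 290.4 ± 19.3 to 106 ± 19.5 CPM, and Nrp1, a semaphorin and VEGF co-receptor gene, from 207 ± 31.3 to 159 ± 3.84 CPM. Egfr, the EGF receptor gene, rose from 1.88 ± 0.548 to 12.2 ± 0.288 CPM, Plxnb3 from 0.553 ± 0.249 to 3.17 ± 0.839 CPM and Plxnb2 from 388 ± 13.8 to 436 ± 14.1 CPM (adjusted p = 1.84e-05, 0.000933 and 0.0488, edgeR).

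Of 13 adaptors and effectors, 4 rose, 6 fell and 3 did not pass, against 28.6% higher and 28.7% lower over all tested genes. Shc1, an adaptor gene of the RAS pathway, fell from 206 ± 5.18 to 70.4 ± 13.1 CPM and the kinase gene Src from 149 ± 2.96 to 65.5 ± 4.59 CPM (adjusted p = 8.45e-06 and 2.51e-06, edgeR). The rises were those of Ptpn11, the gene of the phosphatase SHP2, from 255 ± 7.82 to 473 ± 34.6 CPM, and of the adaptor genes Crk, Gab2 and Crkl, with log2 fold changes of 0.67, 1.06 and 0.25. Grb2, the adaptor gene, fell by 0.21 and Gab1, the main docking protein gene, measured 16.3 ± 0.142 CPM in WT and 18.7 ± 3.35 CPM in dKO (adjusted p = 0.287, edgeR).

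Of 10 tested attenuators of MET, 5 fell, 5 did not pass and 0 rose by edgeR (28.7% of all tested genes were called lower and 28.6% higher), also 0 at an unadjusted p under 0.05 and 0 by DESeq2. Sh3kbp1, whose product CIN85 takes part in receptor endocytosis with CBL, fell from 116 ± 11.1 to 8.07 ± 2.05 CPM (log2 fold change -3.85 ± 0.19, edgeR adjusted p = 6.85e-07). Lrig1, which encodes a membrane protein that lowers receptor tyrosine kinase levels, fell from 244 ± 5.65 to 40.9 ± 3.85 CPM (adjusted p = 6.68e-08, edgeR). The others were Cblb, a ubiquitin ligase gene, at 36.6 CPM in WT and 18.3 CPM in dKO, Ptpn1, a phosphatase gene, with a log2 fold change of -0.32 ± 0.10, and Adam10, a sheddase gene, with -0.31 ± 0.09. Cbl, the ubiquitin ligase gene best known for acting on MET, measured 105 ± 17.4 CPM in WT and 110.1 ± 1.60 CPM in dKO (adjusted p = 0.662, edgeR).

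**Figure D4:**
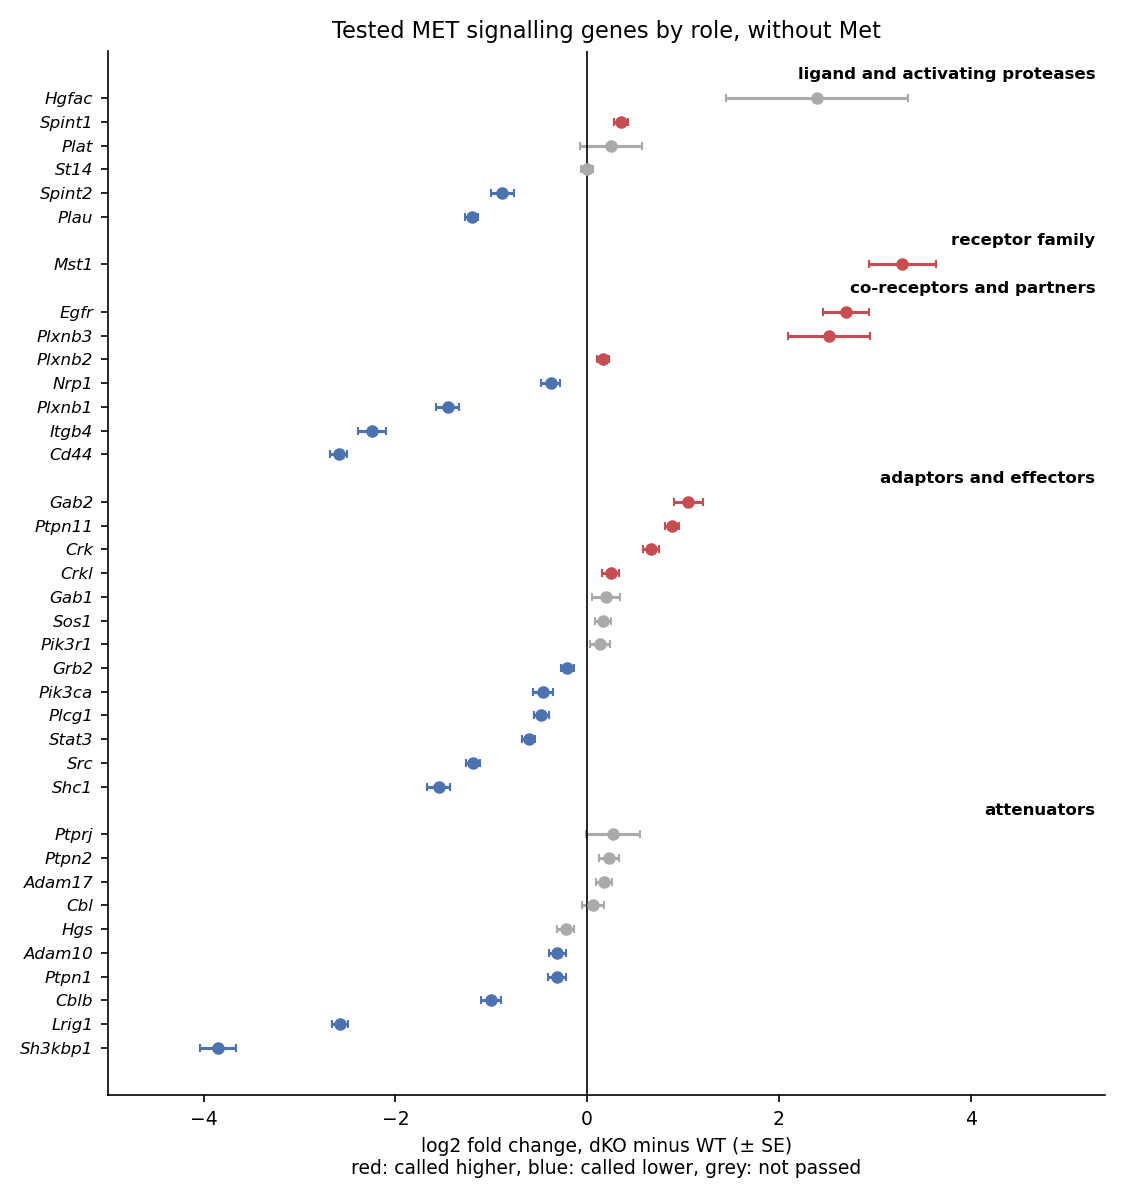
Log2 fold change (dKO minus WT, ± SE) of the 37 tested MET signalling genes other than Met, grouped by role; red points were called higher, blue lower and grey did not pass at an edgeR adjusted p under 0.05. Points of the co-receptors lie on both sides, from -2.59 for Cd44 to 2.71 for Egfr, and the called attenuators lie to the left.

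Partners and paralogues of the other members were followed through 47 genes, of which 39 were tested, with 14 that rose, 11 that fell and 14 that missed the threshold, against 28.6% higher and 28.7% lower over all tested genes. Their median log2 fold change was 0.16. For Capza2, the paralogue Capza1, on another chromosome, rose by a similar amount, from 175 ± 13.8 to 351 ± 12.2 CPM (log2 fold change 1.00 ± 0.08, edgeR adjusted p = 7.41e-06). Capzb, the gene of the beta subunit with which either alpha subunit pairs, measured 163 ± 8.44 CPM in WT and 174 ± 9.83 CPM in dKO, short of the threshold (adjusted p = 0.282, edgeR). It passed without both WT 2 and dKO 3, at a log2 fold change of 0.17 (adjusted p = 0.0177, edgeR). Of 9 tested capping genes 3 rose, the others being Cd2ap, an adaptor gene that binds capping protein, from 147 ± 9.57 to 285 ± 42.1 CPM, and Twf1, a twinfilin gene, by 0.49 ± 0.10 on the log2 scale. Carmil1, which encodes an uncapping protein, fell by 0.23 ± 0.08.

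Around Tes, the gene of the actin elongation factor VASP fell (Vasp, from 184 ± 22.3 to 142 ± 2.82 CPM, edgeR adjusted p = 0.00695), and Zyx, the zyxin gene, Tln1 and Enah did not pass. Prickle1, a planar polarity gene related to Tes, rose from 1.17 ± 0.506 to 3.49 ± 1.63 CPM with overlapping groups (adjusted p = 0.0186, edgeR), a call lost without WT 1, WT 3, dKO 1 or dKO 2 (adjusted p = 0.0609, 0.0623, 0.059 and 0.0747, edgeR). Of the other Sm-like ring genes, Lsm1, which replaces Lsm8 in the cytoplasmic ring, rose from 30.1 ± 2.19 to 50.1 ± 3.46 CPM (adjusted p = 0.000216, edgeR), as did Lsm4 and Lsm5. Lsm6 fell from 75.4 ± 3.57 to 46.1 ± 0.419 CPM (adjusted p = 5.38e-05, edgeR), as did Lsm7, while Lsm2 and Lsm3 did not pass.

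Of the other genes of the Norrin receptor, which TSPAN12 serves, 0 of 3 tested were called higher by edgeR, where 28.6% were over all tested genes, also 0 at an unadjusted p under 0.05 and 0 by DESeq2. Lrp5, a Wnt co-receptor gene, fell from 269 ± 31.5 to 118 ± 7.24 CPM and Lrp6 from 149 ± 14.1 to 117 ± 2.64 CPM (adjusted p = 1.08e-05 and 0.00613, edgeR). Fzd4, the Norrin receptor gene, was at 10.3, 5.19 and 11.9 CPM in WT and at 6.28, 5.26 and 5.75 CPM in dKO (adjusted p = 0.0788, edgeR), and it passed as lower without WT 2 (adjusted p = 0.00256, edgeR). Ndp, the gene of Norrin, had 0 counts.

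Among ion transport genes considered with Cftr, Scnn1a, the alpha subunit gene of the epithelial sodium channel, rose from 0.859 ± 0.145 to 25.5 ± 4.45 CPM (log2 fold change 4.88 ± 0.21, edgeR adjusted p = 2.77e-07). Its partners Scnn1b and Scnn1g had 0 counts in every library. Unlike Cftr, Scnn1a was not low in dKO 3, where it stood at 30.6 CPM, above dKO 1 (23.3 CPM) and dKO 2 (22.6 CPM). Slc9a3r2, a PDZ scaffold gene, rose from 20.7 ± 0.751 to 47.0 ± 3.69 CPM (adjusted p = 1.17e-05, edgeR), and Ezr and Slc26a6 also rose. Ano1, a calcium-activated chloride channel gene, fell from 55.7 ± 8.95 to 23.6 ± 2.96 CPM, and Clcn2 and Slc12a2 fell as well, by 0.37 and 0.40 on the log2 scale.

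Of the genes related to Mdfic, the paralogue Mdfi was below the floor in every library. Hexim1, which encodes an inhibitor of the elongation factor P-TEFb, fell from 115 ± 9.88 to 46.1 ± 5.89 CPM, and Ccnt1, a P-TEFb cyclin gene, rose by 0.36 ± 0.11 on the log2 scale (adjusted p = 1.34e-05 and 0.0199, edgeR). The PIEZO mechanosensitive channel genes parted. Piezo2 fell from 66.1, 38.1 and 69.5 CPM in WT to 0.0785, 0.295 and 0.768 CPM in dKO (adjusted p = 2.89e-05, edgeR), near the floor, so its fold is uncertain, while Piezo1 rose from 225 ± 31.6 to 317 ± 38.7 CPM (adjusted p = 0.00692, edgeR). St7l, the paralogue of St7, rose from 26.3 ± 3.78 to 42.6 ± 3.25 CPM. That is 0.70 ± 0.12 as log2 fold change against 2.01 ± 0.11 for St7, a difference that was not tested. St7l overlaps Capza1 on the opposite strand of chromosome 3, and reads shared between these genes were not checked.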

How the data were processed

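The 6 libraries were bulk RNA-seq of 4T1 spheroids. The deposited values are estimated counts per gene, whole numbers without normalization, and the files of single libraries equalled the series table in all 6. HISAT2 2.2.1, StringTie 2.2.1 and the build GRCm38 (mm10) are named per the submitters' processing notes. How reads were assigned to genes, with which annotation and with or without strand, is not given in the sources used here. Between 678 and 775 genes per library sit at exactly 4 counts, against 273 to 367 at 5, so a read pair may add 4 counts and a floor of 12 counts, or 3 pairs, was set after seeing the values. Symbols, positions and merged exon lengths came from GENCODE M21 (GRCm38), which matched 48058 of 48820 identifiers.

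edgeR 4.0.16 in R 4.3.3 was fitted to all genes (TMM, filterByExpr by group, robust quasi-likelihood F-test, genotype only), with Benjamini-Hochberg adjustment over the 15807 genes tested. A gene was called at an adjusted p under 0.05. Each SE was taken as the size of the log2 fold change over the root of F. The functions were tested on simulated data. DESeq2 1.42.0, other scalings, filters and left-out libraries were alternatives. Members and lists were chosen with earlier results of these data known. Genes named were the members, the other tested genes of the stretch, the 3 nearest tested genes on each side, the 5 profiles nearest to Met, the 2 called genes with the smallest adjusted p in each role group or partner list, Capza1, Capzb, Mdfi, St7l, Fzd4, Lats1 and Lats2. Others were named after their values were seen.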

Additional observations from a re-analysis of the deposited data

How the results depend on the processing

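Over 15 alternatives the genes called across the table ran from 7067 to 10139 (main count 9060), those flanking the stretch from 7 to 11 (8), MET signalling genes from 20 to 32 (26) and partners and paralogues from 18 to 31 (25), each within 1.5 times of the main count. With each library left out in turn these counts ran from 8041 to 9120, 8 to 10, 22 to 29 and 19 to 28. The median log2 fold change of the 8 members was 1.58, from 1.53 to 1.62 with a library left out, and 1.14 with the stricter filter of 5 CPM, which by construction left 7 members, without Cftr. Each member kept its direction in every alternative that gave it a value. Cftr (6.12 to 12.00), Mdfic (0.71 to 1.03), Capza2 (1.10 to 1.25) and Tspan12 (2.07 to 2.36) moved by more than the SE of the main fit in some alternatives. The other members moved by less than theirs. Replicate numbers are shared between the groups in the labels, but the deviations of same-numbered libraries correlated at -0.10, 0.11 and 0.16, and WT 1 was closest to dKO 3, so the numbers were not taken to pair the samples. With a replicate block 8658 genes were called across the table, and 9, 24 and 24 in the other groups of genes. No scaling moved the median of all genes by over 0.1 on the log2 scale. Each scaling sets most genes near level, so this does not test a shift shared by all genes. Depth limits Cftr in WT and the genes below the floor.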

Other observations

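The whole of chromosome 6 held 788 tested genes, members included, of which 265 were called higher and 197 lower. On the log2 scale their fold changes had a median of 0.14. Among all 15807 tested genes, 28.6% were called higher and 28.7% lower, and the median was -0.005. In bins of 5 Mb by gene start, the bin from 5 to 10 Mb, which holds no member, had 12 of 19 called higher and 0 lower by edgeR, also 0 lower at an unadjusted p under 0.05 and 0 by DESeq2, with a median of 0.76. The bin from 10 to 15 Mb, just before the members, had 2 of 7 called higher and 1 lower, with a median of 0.30. The bin from 25 to 30 Mb had 16 of 27 called higher and 2 lower, with a median of 0.63. At the other end of the chromosome, the bin from 145 to 150 Mb had 5 of 42 called higher and 19 lower, with a median of -0.55. These bins were chosen after their values were seen, out of 29, and are given as values only.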
